A study of Mus musculus with 12 samples.

Results

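The 10 genes of hepatic de novo lipogenesis described here were followed through the isolation and culture of mouse hepatocytes, in single-nucleus RNA sequencing of 8 mice. The 10 members were chosen by name from 32285 genes in the deposited matrices: the regulators Srebf1 and Mlxipl, the enzymes Acly, Me1, Acaca, Fasn, Elovl6, Elovl5 and Scd1, and the lipid droplet gene Pnpla3. Each mouse gave a piece of liver (Liver), hepatocytes frozen directly after collagenase digestion (Cell Suspension) and hepatocytes kept for 24 hours on collagen (Primary Hepatocytes), so that each sample type had 8 samples, numbered 1 to 8. The study refers to mouse IDs across the sample types, and samples of the same number are read here as the same mouse. Liver and Cell Suspension samples of the same number deviated together in 8 of 8 numbers (correlation above 0.1), Liver and Primary Hepatocytes samples in 2 of 8, so for Primary Hepatocytes the levels do not show the pairing. All mice were untreated wild-type animals, given as C57BL6J in the labels and as young adult, chow-fed male C57BL/6NTac mice in the study's methods. The Liver piece was cut from the median lobe after buffer perfusion and before collagenase, whereas the other 2 sample types came from the digested remainder. The step from Liver to Cell Suspension is called isolation below. Lobe, tissue handling and digestion cannot be told apart in it. The culture medium held dexamethasone and insulin, and cultured cells were detached with trypsin before freezing. The samples were run in 6 pools, each a single 10x reaction with hashtagged samples, and only pools 2 and 5 held both Liver and Primary Hepatocytes.

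De novo lipogenesis turns surplus carbohydrate into fatty acids. In the liver, insulin raises SREBP-1c, a product of Srebf1, and glucose metabolites activate ChREBP, the product of Mlxipl, and both transcription factors drive the genes of the pathway. ATP citrate lyase (Acly) makes cytosolic acetyl-CoA and malic enzyme (Me1) supplies NADPH. Acetyl-CoA carboxylase (Acaca) forms malonyl-CoA, from which fatty acid synthase (Fasn) builds palmitate. Elovl6 and Elovl5 lengthen fatty acids, Scd1 introduces a double bond, and Pnpla3 codes for a lipid droplet protein whose gene is a target of both regulators.

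Promoter sequences are shown for 3 members: Fasn and Elovl5, which rose during isolation, and the regulator Mlxipl, which changed little there. The sequences are RefSeq's, of build GRCm38.p6, printed from 5′ to 3′ along the gene's strand as the 250 bases before the annotated start, with motif letters in capitals. Both strands were searched for 3 motifs, the sterol response element core TCACNCCAC, the palindromic E-box CACGTG and the CCAAT box CCAAT, which reads ATTGG on the other strand.
Fasn (chr11:120824548-120824797, minus strand): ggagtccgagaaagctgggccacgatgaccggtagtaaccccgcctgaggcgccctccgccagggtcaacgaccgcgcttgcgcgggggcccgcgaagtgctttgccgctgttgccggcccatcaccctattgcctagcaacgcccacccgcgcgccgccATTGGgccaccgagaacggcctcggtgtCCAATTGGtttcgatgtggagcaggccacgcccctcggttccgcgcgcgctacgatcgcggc
Elovl5 (chr9:77917115-77917364, plus strand): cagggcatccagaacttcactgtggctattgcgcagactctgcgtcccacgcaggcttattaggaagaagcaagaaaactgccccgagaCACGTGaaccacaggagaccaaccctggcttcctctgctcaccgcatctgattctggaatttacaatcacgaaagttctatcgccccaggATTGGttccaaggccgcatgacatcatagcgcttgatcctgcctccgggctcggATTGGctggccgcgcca
Mlxipl, first of 2 annotated promoters (chr5:135106641-135106890, plus strand): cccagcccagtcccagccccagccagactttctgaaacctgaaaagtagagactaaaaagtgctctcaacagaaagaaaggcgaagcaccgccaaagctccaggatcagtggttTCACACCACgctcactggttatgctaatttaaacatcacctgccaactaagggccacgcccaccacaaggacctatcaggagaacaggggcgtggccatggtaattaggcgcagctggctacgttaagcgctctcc
The Fasn window held 3 CCAAT matches, starting at positions -90, -62 and -59 from the start, of which the last 2 overlap. The Elovl5 window held an E-box at -161 and CCAAT matches at -71 and -17. The first Mlxipl window held the sterol response element core at -136, and the second held an E-box at -98 and a CCAAT match at -173. Such letters are common in part: of 32851 promoter windows of the same length, 1.05% held the sterol response element core, 6.02% the E-box and 33.8% the CCAAT box. Of the 10 members, 9 matched an entry, with 13 promoters in all. Windows of Srebf1, Me1 and Pnpla3 held CCAAT matches, and those of Acly, Acaca and Elovl6 held none of the 3 motifs. The Me1 match lay in the second of its 2 windows, and the window at the gene's 5′ end held no motif. The second Me1 window, the only Acaca window and the first Mlxipl window lie inside the gene, away from its annotated 5′ end. Scd1 was not matched. A match describes letters in the window and is not a site.

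The level of a gene is given as CPM, its unique molecular identifiers (UMIs) scaled to a common total per sample with TMM factors, over spliced, unspliced and ambiguous RNA of its hepatocyte nuclei. Hepatocyte nuclei numbered 44788 of 53467, and their UMI sums were 6872031 to 29023569 in Liver, 2104087 to 17452582 in Cell Suspension and 9852007 to 21226254 in Primary Hepatocytes. The deposited annotation gives nearly all Primary Hepatocytes nuclei the single name of cultured cells, and those clusters were divided here by marker lists, since the study's own finer naming of the cultures was not used here. All 12 hepatocyte markers fell in culture, their summed level being 2408 to 6499 CPM in Primary Hepatocytes and 13477 to 21074 CPM in Liver. Of the lists of other cell types, the endothelial and stellate ones had summed levels in hepatocyte nuclei of Liver and Primary Hepatocytes of 48.5 to 77.5 and 94.2 to 153 CPM for 12 endothelial markers, and of 39.1 to 70.6 and 59.0 to 512 CPM for 10 stellate markers. Of these, 5 endothelial markers rose and 3 fell, and 1 stellate marker rose. The 8 biliary markers summed to 134 to 240 CPM in Liver and 116 to 172 CPM in Primary Hepatocytes, with 4 higher and 2 lower in culture. The 8 Kupffer cell markers summed to 9.21 to 20.9 and 6.72 to 12.8 CPM, with 4 lower, and of 10 leukocyte and 5 mesothelial markers 1 each was lower. No marker was at 0 in a whole sample type. In Cell Suspension the endothelial sum was 60.6 to 112 CPM, with 8 markers higher than in Liver, and the stellate sum was 35.8 to 85.6 CPM. The part of RNA from other cells in the members' levels was not tested here. Pools shared barcodes, with 335 found in 2 pools and 2 in 3 pools, which concerned 676 nuclei. Of the hepatocyte nuclei, 73 labelled Primary Hepatocytes lay in clusters of uncultured cells and 918 labelled Liver or Cell Suspension lay in clusters of cultured cells. Without these nuclei every member kept its call in each comparison.

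Culture was compared with Liver, the piece of median lobe cut before digestion. All 10 members fell between Liver and Primary Hepatocytes, from 2.58-fold for Me1 to 10.1-fold for Elovl6. Among all 26778 genes tested in this comparison, 26.3% were called lower and 27.4% higher. The median log2 change of the members was -2.16, against 0.10 for all genes. In 8 members every Primary Hepatocytes sample lay below every Liver sample, as for 16.2% of all genes, and the groups overlapped in Scd1 and Pnpla3. The test was edgeR's quasi-likelihood test over all genes with Benjamini-Hochberg adjustment, which applies to each adjusted p below. The fall was also seen within pools 2 and 5 for each member, and all 10 were called in each of 21 alternative settings.

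Compared with Cell Suspension, the 10 members were lower in Primary Hepatocytes as well, by 2.81-fold for Me1 up to 60.7-fold for Fasn. These are folds of summed levels, and that of Fasn in culture did not differ by test from its level in nuclei of the same samples that were rich in endothelial markers (log2 -0.04 ± 0.19, adjusted p = 0.884). Scd1 was lower in cultured hepatocyte nuclei than in those nuclei (log2 -0.56 ± 0.15, adjusted p = 0.00176). Acly, Elovl5, Srebf1 and Pnpla3 did not differ by test, and Mlxipl, Me1, Acaca and Elovl6 were higher. The part of free RNA in the cultured values of the members, their spliced shares and positions included, was not tested. With spliced UMIs alone Me1 was not called (log2 -0.34 in place of -1.49, adjusted p = 0.0512). With all UMIs, no sample of the 2 types overlapped in any member. For all genes, 23.5% were called lower, 26.9% higher, and 12.2% were lower without overlap. Both comparisons use the same Primary Hepatocytes samples. Within the 4 pools that held both types, each member was lower in Primary Hepatocytes in 4 of 4.

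The isolation step was examined by comparing Cell Suspension with Liver, which also sets the digested remainder against the median lobe. Here 6 members were called higher, namely Fasn, Scd1, Elovl5, Srebf1, Acly and Mlxipl, against 8.15% of all genes. None was called lower, against 14.2% of all genes, and the 10 estimates ranged from 0.12 to 2.88 on the log2 scale. The groups were separate in Fasn alone, as for 1.26% of all genes. In the same step the summed periportal markers had medians of 5341 CPM in Liver and 9245 CPM in Cell Suspension, with 3 of 10 higher and 0 lower. The pericentral sum was 2764 and 2417 CPM, with 2 of 10 higher and 2 lower. Of 12 hepatocyte markers 4 were higher and 0 lower. The part of lobule position in the members' changes was not tested. Scaling matters to the background of this comparison, since 36.5% of its called genes were higher under TMM, 47.8% under RLE, 49.3% in DESeq2 and 46.0% after a stricter filter on low counts. The median log2 change of all genes was 0.02 under TMM and 0.13 in DESeq2. The plot of levels by sample shows the 3 sample types of each mouse.

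**Figure D1:**
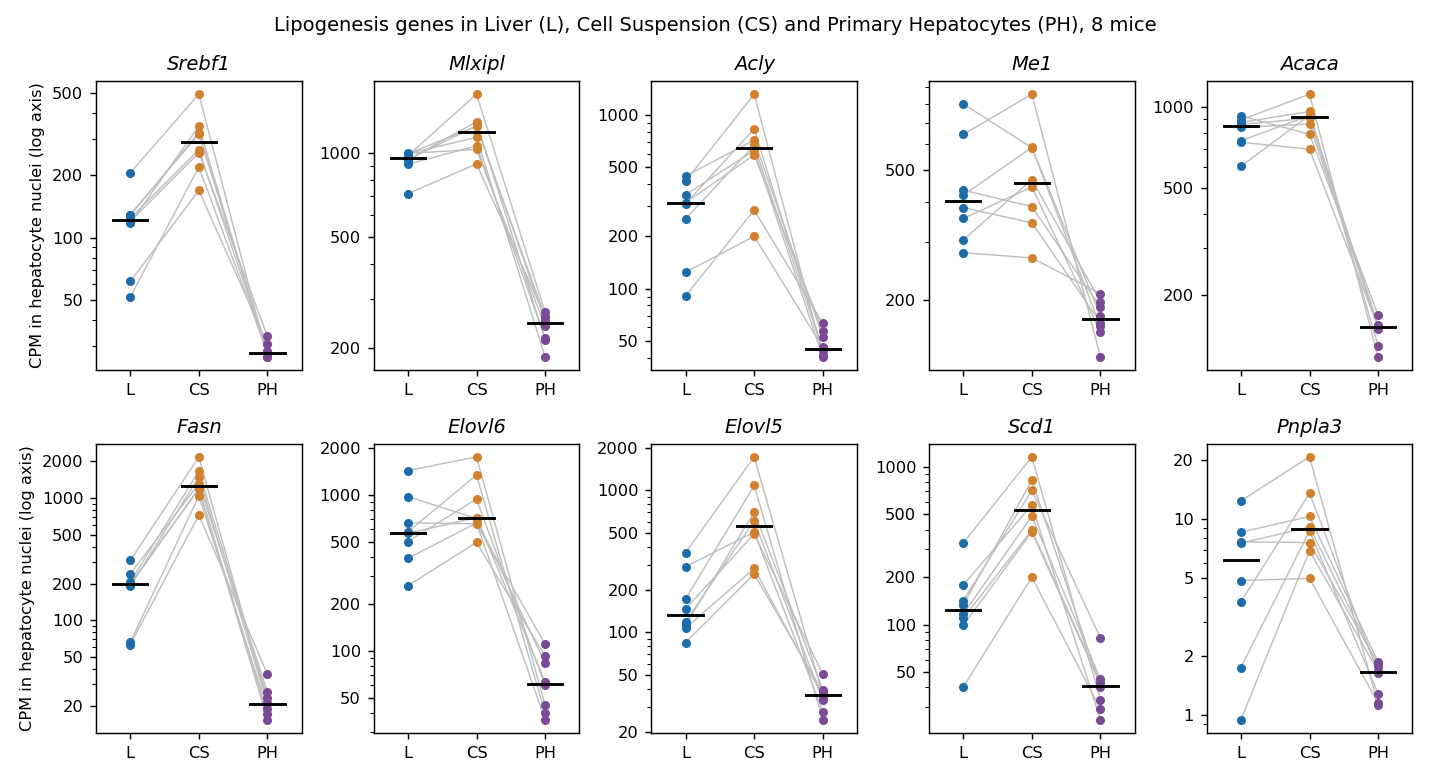
Levels of the 10 genes in hepatocyte nuclei, in CPM on a log axis, in Liver (L), Cell Suspension (CS) and Primary Hepatocytes (PH). Points are samples, grey lines join samples of the same number and black bars are medians of 8 samples. All 10 genes were lowest in Primary Hepatocytes by median, and Fasn was higher in every Cell Suspension sample than in any Liver sample.

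Of the regulators, Srebf1 had 51.7 to 206 CPM in Liver (median 122, n = 8), 169 to 493 CPM in Cell Suspension (median 291) and 26.6 to 33.5 CPM in Primary Hepatocytes (median 28.0). It rose 2.55-fold during isolation (log2 1.35 ± 0.21 SE, adjusted p = 1.01e-05) and was 4.09-fold lower in culture than in Liver (log2 -2.03 ± 0.21, adjusted p = 1.08e-09). The gene was higher in Cell Suspension in 8 of 8 mice, although the highest Liver sample, of mouse 4, exceeded the lowest Cell Suspension sample, of mouse 3. Mlxipl ran from 714 to 997 CPM in Liver (median 961), from 914 to 1623 CPM in Cell Suspension (median 1192) and from 186 to 269 CPM in Primary Hepatocytes (median 246). Its fall in culture was 3.95-fold (log2 -1.98 ± 0.12, adjusted p = 1.44e-14). The rise of Mlxipl during isolation was 1.28-fold (log2 0.35 ± 0.12, adjusted p = 0.0327). That call was lost without mouse 2, 4, 5, 6 or 8 in turn, with log2 changes of 0.31 to 0.37, and with spliced or unspliced UMIs alone. The 2 regulators thus moved in the same directions, with Mlxipl at the edge of the threshold in the first step.

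Acly, which feeds acetyl-CoA into the pathway, had 90.8 to 446 CPM in Liver (median 311), 200 to 1322 CPM in Cell Suspension (median 648) and 40.3 to 63.1 CPM in Primary Hepatocytes (median 45.1). It was 2.28-fold higher in Cell Suspension than in Liver (log2 1.19 ± 0.29, adjusted p = 0.00284) and 5.92-fold lower in culture (log2 -2.56 ± 0.31, adjusted p = 1.62e-08). With spliced UMIs alone the first of these was not called (log2 0.61, adjusted p = 0.0705). Mouse 3 held the lowest Liver value and mouse 4 the highest Cell Suspension value, and the 2 types overlapped. Me1, the NADPH supplier, had 279 to 798 CPM in Liver (median 401), 269 to 855 CPM in Cell Suspension (median 456) and 133 to 209 CPM in Primary Hepatocytes (median 174). It fell 2.58-fold in culture (log2 -1.37 ± 0.21, adjusted p = 1.35e-06). Between Cell Suspension and Liver its log2 difference was 0.12 ± 0.20 (adjusted p = 0.733), with Cell Suspension higher in 4 of 8 mice. With spliced UMIs alone Me1 was called lower in Cell Suspension (-0.42, adjusted p = 0.0372).

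Acaca, whose product makes malonyl-CoA, had 602 to 927 CPM in Liver (median 852), 698 to 1116 CPM in Cell Suspension (median 919) and 118 to 169 CPM in Primary Hepatocytes (median 152). It fell 5.50-fold in culture (log2 -2.46 ± 0.12, adjusted p = 5.40e-17), while Cell Suspension and Liver differed by 0.15 ± 0.11 on the log2 scale (adjusted p = 0.396). Acaca and its partner enzyme therefore differed in the isolation step, as Fasn showed the largest rise of the 10. Fasn had 63.4 to 309 CPM in Liver (median 196), 726 to 2173 CPM in Cell Suspension (median 1256) and 15.4 to 36.2 CPM in Primary Hepatocytes (median 20.9). The rise was 7.37-fold (log2 2.88 ± 0.27, adjusted p = 2.45e-09), and it was 2.09 to 5.02 on the log2 scale within the 4 pools that held both types. In culture Fasn was 8.24-fold below Liver (log2 -3.04 ± 0.27, adjusted p = 5.25e-11), so that its levels were ordered Cell Suspension, Liver, Primary Hepatocytes without overlap between neighbours.

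The elongases differed from each other. Elovl6, which lengthens palmitate, had 261 to 1427 CPM in Liver (median 572), 494 to 1746 CPM in Cell Suspension (median 708) and 36.1 to 110 CPM in Primary Hepatocytes (median 61.4). Its Cell Suspension and Liver samples overlapped broadly (log2 0.43 ± 0.29, adjusted p = 0.324), and it fell 10.1-fold from Liver to culture (log2 -3.34 ± 0.32, adjusted p = 1.67e-10). Elovl5, which acts on polyunsaturated fatty acids, had 84.8 to 364 CPM in Liver (median 133), 257 to 1720 CPM in Cell Suspension (median 559) and 24.2 to 50.6 CPM in Primary Hepatocytes (median 36.0). It rose 4.05-fold during isolation (log2 2.02 ± 0.32, adjusted p = 2.12e-05) and was 4.90-fold below Liver in culture (log2 -2.29 ± 0.33, adjusted p = 4.98e-07). Mouse 1 held the highest Elovl5 value in both uncultured types.

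Scd1, the stearoyl-CoA desaturase of hepatocytes, had 40.2 to 328 CPM in Liver (median 125), 200 to 1155 CPM in Cell Suspension (median 530) and 25.0 to 82.2 CPM in Primary Hepatocytes (median 41.1). It rose 4.12-fold during isolation (log2 2.04 ± 0.32, adjusted p = 1.69e-05) and was 3.37-fold below Liver in culture (log2 -1.75 ± 0.32, adjusted p = 2.38e-05). The lowest Liver sample, of mouse 3, lay below the highest Primary Hepatocytes sample, of mouse 6. Pnpla3 was scarce, with 0.947 to 12.4 CPM in Liver (median 6.20), 4.99 to 20.8 CPM in Cell Suspension (median 8.91) and 1.13 to 1.86 CPM in Primary Hepatocytes (median 1.66), from 12 to 267 UMIs per sample. Its fall in culture was 3.86-fold (log2 -1.95 ± 0.35, adjusted p = 1.56e-05). For the isolation step its log2 difference was 0.80 ± 0.33 (adjusted p = 0.0809), which passed the threshold with the mouse as a block (0.90, adjusted p = 0.0143). It also passed in DESeq2 (adjusted p = 0.0472) and in 4 other settings.

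Spliced and unspliced UMIs were set side by side, since unspliced RNA in nuclei is mostly recent transcript. The study's counting also marks ambiguous UMIs, which were left out of this comparison. The members differed widely in their spliced share of spliced and unspliced UMIs, whose median over Liver samples was 64.9% in Scd1, 54.3% in Mlxipl, 50.6% in Fasn, 27.2% in Srebf1, 11.9% in Elovl5, 11.6% in Acly, 5.45% in Elovl6, 4.68% in Acaca, 4.67% in Pnpla3 and 4.42% in Me1. Scd1, Fasn and Mlxipl span 13.4, 18.7 and 48.5 kb of the genome (GENCODE models on GRCm38), whereas Me1, Elovl6 and Acaca span 115, 106 and 272 kb. Pnpla3, Srebf1, Acly and Elovl5 span 19.4, 23.5, 51.6 and 67.2 kb, so the shares did not follow the order of the lengths. A spliced share is compared here only within a gene.

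The isolation step changed the 2 kinds of RNA unequally. With each kind scaled to its own total, the spliced UMIs of 6 members rose less than the unspliced ones or fell against them. In none was the reverse called, while 22.1% of 16996 genes differed in either direction. For Scd1, unspliced UMIs rose 8.22-fold and spliced UMIs 1.66-fold (difference -2.74 ± 0.31 on the log2 scale, adjusted p = 2.16e-09), and its median spliced share was 64.9% in Liver and 34.4% in Cell Suspension. For Elovl5, unspliced UMIs rose 4.80-fold, whereas spliced UMIs had a log2 change of -0.31 ± 0.22 (adjusted p = 0.346) and the median spliced share was 11.9% and 2.61%. The rise of Elovl5 during isolation was therefore one of unspliced RNA. Fasn rose in both kinds, 9.43-fold in unspliced and 4.84-fold in spliced UMIs (difference -1.12 ± 0.14, adjusted p = 4.72e-08). Acly and Me1 had differences of -0.80 ± 0.18 and -0.81 ± 0.15, and Elovl6 one of -0.50 ± 0.17. That of Elovl6 was not called without mouse 2 (-0.45, adjusted p = 0.0753) or with ambiguous UMIs added (-0.18). The median spliced shares in Liver and Cell Suspension were 11.6% and 11.5% for Acly and 4.42% and 4.47% for Me1. For Elovl6 they were 5.45% and 5.33%, so these medians stayed level while that of all hepatocyte UMIs was higher. By mouse, each of these shares was lower in Cell Suspension in some mice and higher in others. In mouse 1 the Liver and Cell Suspension shares were 5.63% and 2.78% for Me1, 10.9% and 6.68% for Acly and 5.49% and 4.03% for Elovl6. Mouse 8 had 2.95% and 5.04%, 10.9% and 16.9%, and 3.64% and 7.82%. Srebf1 rose in spliced (2.77-fold) and unspliced UMIs (2.28-fold), with a difference of 0.19 ± 0.15 (adjusted p = 0.405). With ambiguous UMIs added to the spliced ones, the difference was called for Srebf1 (0.41, adjusted p = 0.0189), in the other direction than the 6, and for Acaca (-0.31, adjusted p = 0.0341).

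From Cell Suspension to Primary Hepatocytes the unspliced UMIs fell further than the spliced ones in 6 members, with 25.0% of all genes differing in either direction. Unspliced and spliced UMIs fell 81.5-fold and 4.71-fold for Scd1, 22.6-fold and 3.67-fold for Elovl5, and 124-fold and 32.5-fold for Fasn. Acly, Me1 and Elovl6 were the other 3. In culture the median spliced share was 90.9% for Scd1 and 73.0% for Fasn, and the part of free RNA in these shares was not tested. Between Liver and Primary Hepatocytes 4 members were called, against 29.3% of all genes. Relative to the totals of each kind, Fasn (0.59 ± 0.15, adjusted p = 0.00223) and Scd1 (1.10 ± 0.33, adjusted p = 0.00879) kept more spliced RNA. Srebf1 (-0.53 ± 0.15, adjusted p = 0.00653) and Mlxipl (-0.73 ± 0.14, adjusted p = 4.10e-05) kept less by that measure. The median spliced shares of Srebf1 and Mlxipl themselves were 27.2% and 54.3% in Liver and 27.9% and 51.8% in culture. Acly, Me1, Acaca and Elovl6 were not called, with shares of 11.6%, 4.42%, 4.68% and 5.45% in Liver. In culture these were 20.2%, 7.82%, 7.95% and 9.64%. The median difference of all genes was -0.06 here and moved between -0.18 and 0.25 over the alternatives. Relative to that median, Fasn stayed between 0.58 and 0.75, Scd1 between 0.91 and 1.66, Srebf1 between -0.61 and -0.37 and Mlxipl between -0.74 and -0.59. The count of 4 became 7 without mouse 1, 3, 4 or 5, where Acly, Me1, Acaca and Elovl6 were added and Srebf1 was lost, and 3 without mouse 7, where Scd1 was lost (adjusted p = 0.0541). With ambiguous UMIs added to the spliced ones it became 6, with Me1 (0.37, adjusted p = 0.0379) and Elovl6 (0.42, adjusted p = 0.0425). Against Cell Suspension, Srebf1 and Mlxipl were called lower as well (-0.72 ± 0.15 and -0.48 ± 0.14), and both calls were lost without mouse 1, 3, 4 or 5. In those settings Acaca was called higher (0.57 to 0.66), and so was Pnpla3 without mouse 1 or 3 (1.84 and 1.93). The median difference of all genes moved between -0.21 and 0.30 over the alternatives, and relative to it Srebf1 stayed between -0.73 and -0.48 and Mlxipl between -0.47 and -0.33.

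**Figure D2:**
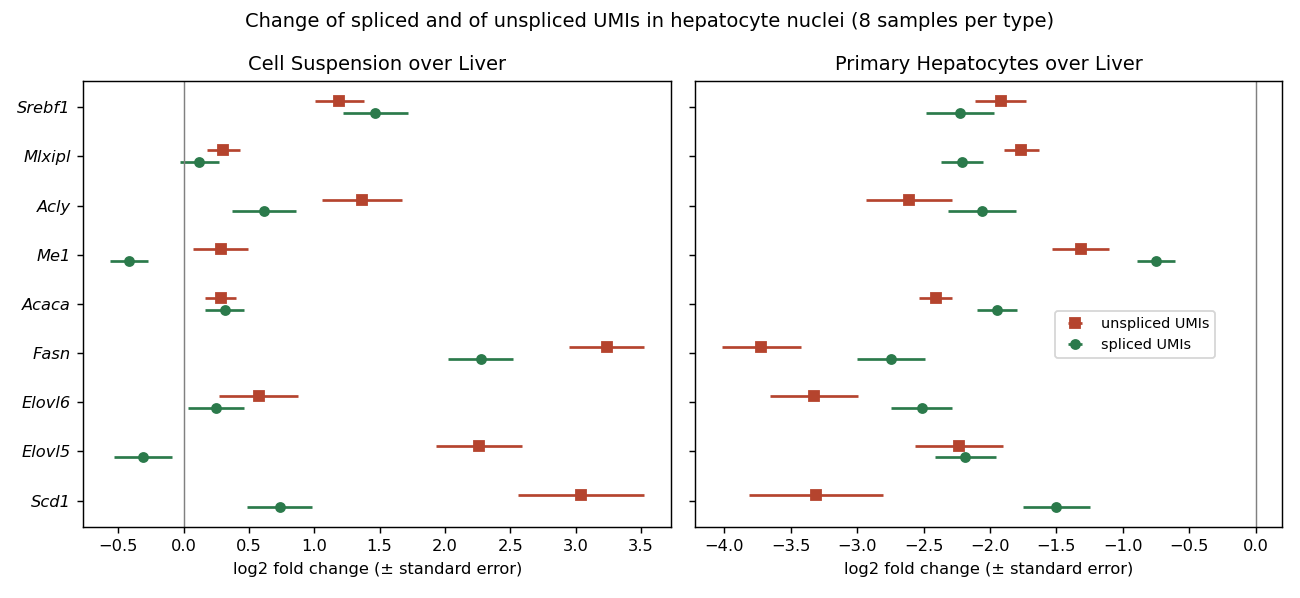
Log2 fold changes of unspliced (squares) and spliced (circles) UMIs in hepatocyte nuclei, with standard errors, for Cell Suspension over Liver and Primary Hepatocytes over Liver, 8 samples per type. Pnpla3, with few spliced UMIs, is not drawn. For Elovl5 and Scd1 the unspliced points of Cell Suspension lie far to the right of the spliced ones, at 2.26 against -0.31 and 3.04 against 0.73.

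The spread between mice was described with every sample thinned to the lowest UMI sum, as the SD over 8 mice of log2(CPM + 1). In Liver the members' median SD was 0.72, against 0.29 for the 8623 genes that averaged 10 CPM or more, and 8 of 10 members lay above that median. Pnpla3 is counted among the 10 although it averaged under 10 CPM in each type. In Cell Suspension the values were 0.55 and 0.32, again with 8 members above, and in Primary Hepatocytes 0.35 and 0.24, with 6 above. By these medians the spread was larger in the uncultured types than in culture, which was not tested. Fewer cultured nuclei had a clear hashtag, as given below with the order of the mice. The part of sample assignment in the spread was not tested. The highest Liver SDs were those of Pnpla3 (1.19, at under 10 CPM), Fasn (0.92) and Acly (0.90), and the lowest were those of Mlxipl (0.20) and Acaca (0.24). In Primary Hepatocytes, Elovl6 (0.61) and Scd1 (0.54) had the highest SDs. At full depth the Primary Hepatocytes values were 0.21 and 0.20, again with 6 members above.

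**Figure D3:**
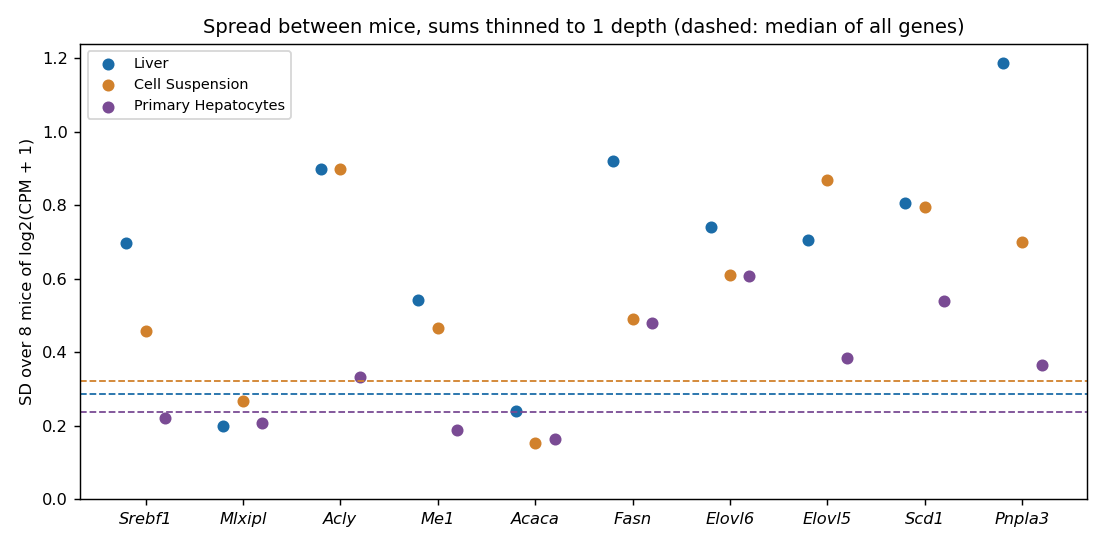
SD over 8 mice of log2(CPM + 1) for each gene and sample type after thinning to a common depth, with dashed lines at the median of all genes in that type. Liver points of Fasn, Acly and Pnpla3 stand highest, and Acaca and Mlxipl lie near or below the dashed lines.

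The same mice stood out in several members. The Liver sample of mouse 3 was the lowest of 8 in 7 of the 10 members, and its Cell Suspension sample the lowest in 5. Mouse 4 had the highest Liver value in 4 members and the highest Cell Suspension value in 8. Samples of these mice were in different pools, with Liver and Cell Suspension of mouse 3 in pools 1 and 4 and those of mouse 4 in pools 2 and 5. In Primary Hepatocytes the sample of mouse 4 was the lowest in 4 members. These ranks are not independent between genes, as the values come from the same libraries.

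Whether the order of the mice was kept between sample types was tested as a correlation of log2(CPM + 1) over the 8 mice, with two-sided exact permutation p-values adjusted over 8617 genes. Pnpla3 was below the level required. Between Liver and Cell Suspension 3 of 9 members were called, all with a positive r, against 15.8% of all genes called with a positive r. Scd1 had r = 0.93 (exact permutation p = 0.00216, adjusted p = 0.0256) and rho = 0.90 (p = 0.00456). Srebf1 had r = 0.88 (exact permutation p = 0.00580, adjusted p = 0.0421) and rho = 0.71 (p = 0.0576), and was not called after thinning to a common depth (adjusted p = 0.0544). Fasn had r = 0.84 (exact permutation p = 0.00583, adjusted p = 0.0422) and rho = 0.81 (p = 0.0218). Without the 2 mice farthest from the Liver median, r was 0.64 for Scd1 (without mice 3 and 4), 0.87 for Srebf1 and 0.74 for Fasn (both without mice 3 and 5). In the last 2, mouse 4 remained as the highest in both types. The median r of the 9 members was 0.73 and that of all genes 0.55. Acly had r = 0.88 (exact permutation adjusted p = 0.0596) and 0.46 without mice 3 and 5, and Elovl6 had r = 0.68, and -0.09 without mice 3 and 6. Liver and Cell Suspension of the same mouse shared a pool only for mice 6 and 7, which is too few for a value within pools.

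With Primary Hepatocytes, where the levels do not show the pairing, no such order was detected. Hashtags were also less clear there. Hepatocyte nuclei with a share of at least 0.5 of their hashtag UMIs on the assigned tag had a median of 477.5 per Primary Hepatocytes sample. The median of all hepatocyte nuclei was 1946.5. In Liver these medians were 1235 and 1900, and in Cell Suspension 879 and 1639. The order was not computed on such nuclei alone, and the part of sample assignment in it was not tested. Between Liver and Primary Hepatocytes r ranged from -0.68 to 0.05 over the 9 members, and between Cell Suspension and Primary Hepatocytes from -0.77 to 0.22. In both pairs no member was called by the exact permutation test, and 0.0% and 0.0% of all genes were called with a positive r. The share of all genes called with a negative r was not counted. By r, only Me1 (r = -0.77, exact permutation p = 0.0270) and Acaca (r = -0.73, exact permutation p = 0.0407) stood at an unadjusted p under 0.05. Both were negative and in the second pair. Without the 2 mice farthest from the Cell Suspension median, r was -0.10 for Me1 and -0.78 for Acaca. There rho was -0.57 for Me1 (exact permutation p = 0.151), -0.74 for Acaca (p = 0.0458) and -0.79 for Srebf1 (p = 0.0279), over all 8 mice. The median r of all genes was 0.05 and -0.11 in these 2 pairs.

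**Figure D4:**
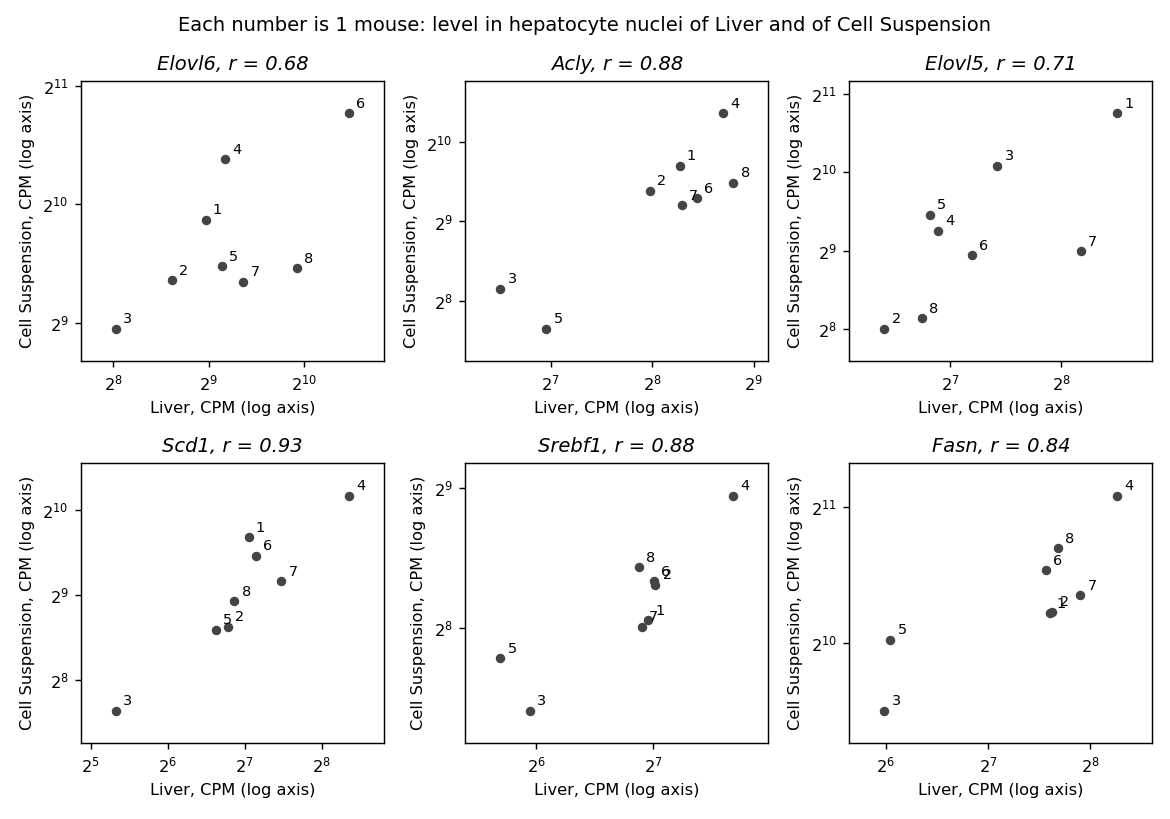
Level in Cell Suspension against level in Liver, both in CPM on log axes, for 6 genes. Each point is a mouse, marked with its number, and r is Pearson's correlation over the 8 mice. Mouse 3 lies at the lower left for Scd1, Fasn and Elovl6, and mouse 4 at the upper right for Scd1, Srebf1 and Fasn.

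The genes whose deviations from the sample type's mean were most like those of Fasn were listed over 24 samples and the 3838 genes that averaged 50 CPM or more, as a description. Srebf1 came at rank 1 (r = 0.91) and Acly at rank 3 (0.83). The first 5 genes outside the 10 were Lipg (0.90), Chd3 (0.83), Tmem63b (0.82), Acaa1b (0.82) and Hjurp (0.79). Lipg, which codes for endothelial lipase, averaged 74.0 CPM in Liver, 102 CPM in Cell Suspension and 1.56 CPM in Primary Hepatocytes. Of the other members Scd1 had r = 0.63 and Elovl5 r = -0.16, so Elovl5 varied between mice apart from Fasn although both rose during isolation.

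Position in the lobule was read from pericentral and periportal marker genes, none of which is a member. Within each sample the hepatocyte nuclei were ranked by these markers, and the upper and lower of 3 equal parts were compared with the sample as a block. In Liver 8 members were higher at the periportal end and 2 at the pericentral end. Of all genes, 10.1% and 10.4% were called in these directions. Acly had a median of 476 CPM in periportal and 93.0 CPM in pericentral nuclei, higher in periportal nuclei in 8 of 8 mice (log2 pericentral minus periportal -2.11 ± 0.08, adjusted p = 2.73e-16). Pnpla3 had 8.35 and 1.15 CPM (-2.73 ± 0.20, adjusted p = 9.36e-11). Elovl5 (-1.07 ± 0.06), Fasn (-0.98 ± 0.07), Acaca (-0.84 ± 0.06), Srebf1 (-0.70 ± 0.07), Elovl6 (-0.47 ± 0.07) and Scd1 (-0.28 ± 0.06) were periportal as well. Over 10 alternatives Scd1 was called in each, at -1.17 to -0.23, so its size depends on the setting. Me1 (0.51 ± 0.08, adjusted p = 1.26e-05) and Mlxipl (0.22 ± 0.05, adjusted p = 0.00219) were pericentral, each in 7 of 8 mice. With narrower ends of the ranking, 10% of nuclei each, Mlxipl was not called (0.18, adjusted p = 0.0759).

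In Cell Suspension 6 members were periportal (6.84% of all genes) and 2 pericentral (8.44%). Acly kept its difference (-2.08 ± 0.11), as did Acaca (-0.94 ± 0.09), Srebf1 (-0.67 ± 0.10) and Elovl6 (-0.47 ± 0.09). The differences of Fasn and Pnpla3 were smaller, at -0.47 ± 0.10 and -1.11 ± 0.22. In a joint fit the change of the difference from Liver to Cell Suspension was called in 4 members, against 1.38% of all genes. The step moved Elovl5 by 0.83 ± 0.13 (adjusted p = 4.22e-06), Fasn by 0.50 ± 0.12 (adjusted p = 0.00774), Pnpla3 by 1.58 ± 0.32 (adjusted p = 0.0010) and Scd1 by 0.43 ± 0.12 (adjusted p = 0.0355) toward the pericentral end. Elovl5 (-0.24 ± 0.11, adjusted p = 0.125) and Scd1 (0.15 ± 0.10, adjusted p = 0.360) were not called within Cell Suspension. With narrower ends of the ranking, 10% of nuclei each, Scd1 (-0.76) and Elovl5 (-0.56, adjusted p = 0.000314) were periportal there and Mlxipl was not called (0.17, adjusted p = 0.504). Without mouse 2 or 3 Elovl5 was called as well (-0.35 and -0.36). The call of Mlxipl (0.26 ± 0.09, adjusted p = 0.0355) was lost without mouse 1, 2, 5, 6, 7 or 8. Scores run from -1, without a pericentral marker UMI, to 1, without a periportal one. The pericentral part began at -0.74 to -0.17 in Cell Suspension samples and at -0.45 to 0.33 in Liver samples. In Cell Suspension of mice 1, 3 and 7 the periportal part held only nuclei tied at -1. The part of this ranking in the changes from Liver was not tested.

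In Primary Hepatocytes the differences were small. Fasn (0.37 ± 0.09), Scd1 (0.41 ± 0.07) and Me1 (0.17 ± 0.04) were called toward the pericentral end, against 4.75% of all genes, and Mlxipl (-0.15 ± 0.04) toward the periportal end, against 3.41%. With ends of 10% of nuclei each, Fasn (0.34, adjusted p = 0.181), Scd1 (0.17, adjusted p = 0.495) and Me1 (0.13, adjusted p = 0.372) were not called, and Mlxipl was (-0.31). A nucleus there had a median of only 3 marker UMIs, compared with 59 to 66.3 in Liver, so the ranking is weakly resolved. The periportal part of every sample held only nuclei at the lowest score of -1, without a pericentral marker UMI, with ties broken at random. The pericentral part began at scores of -0.67 to -0.2, where periportal marker UMIs still outnumber pericentral ones, as was so in Cell Suspension. Acly had medians of 55.8 and 62.7 CPM in the pericentral and periportal parts (-0.15 ± 0.06, adjusted p = 0.115). Relative to Liver, the change of the difference was called in 9 of 10 members, against 9.72% of all genes, by 1.95 ± 0.13 for Acly. It was not called for Me1 (-0.35 ± 0.13, adjusted p = 0.0676). This change cannot be told apart from the weaker ranking in culture.

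**Figure D5:**
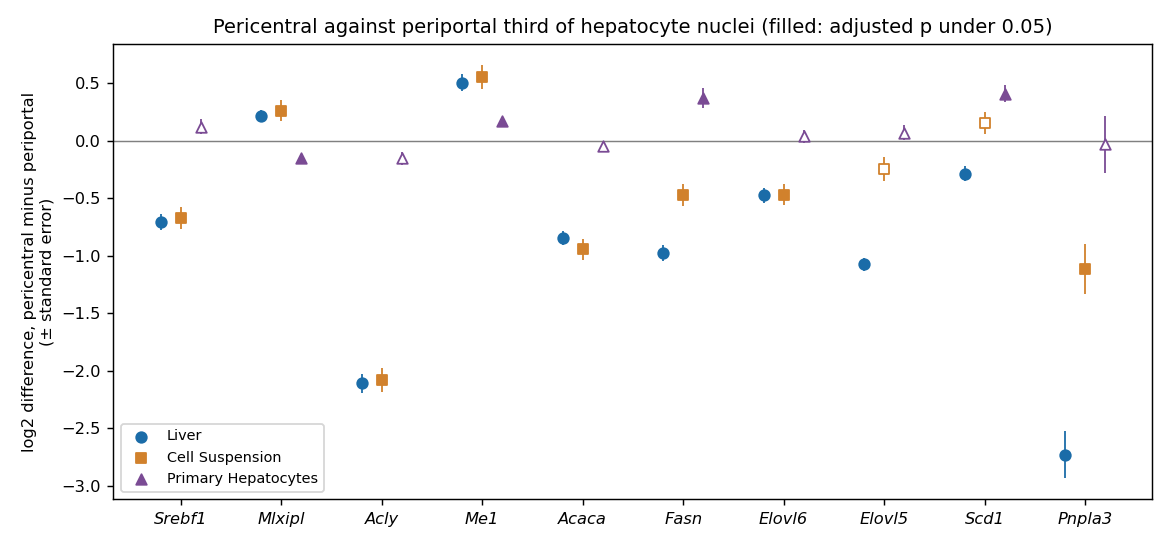
Log2 difference between pericentral and periportal parts of the hepatocyte nuclei, with standard errors, for each gene in Liver (circles), Cell Suspension (squares) and Primary Hepatocytes (triangles). Filled symbols passed an adjusted p of 0.05. Acly and Pnpla3 lie lowest in Liver, at -2.11 and -2.73, and the triangles lie within 0.41 of 0.

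Levels in hepatocyte nuclei were set beside those in endothelial nuclei of the same samples, a cell type not known for high de novo lipogenesis. In Liver 9 members were higher in hepatocyte nuclei, from 0.70 ± 0.17 on the log2 scale for Elovl5 to 3.38 ± 0.14 for Mlxipl, against 29.5% of all genes. Pnpla3 was not called (0.83 ± 0.43, adjusted p = 0.114) and was called without mouse 3 (1.69). The call of Elovl5 was lost without TMM factors (0.26). In Cell Suspension all 10 were higher, against 23.6% of all genes, with Fasn at 3.75 ± 0.21 and Pnpla3 not called without TMM factors (1.05, adjusted p = 0.0943). Pnpla3 had only 10 UMIs in the endothelial nuclei there, and it was higher in hepatocyte nuclei in 5 of 8 samples. In Primary Hepatocytes 1733 of the 1809 nuclei compared came from cluster 12, one of the clusters of cultured cells in the deposited annotation and the one with the highest level of endothelial markers among them. It is left unnamed, since its nuclei had a median of 1355 UMIs, 0.243 of the median of their own samples. The study describes dedifferentiated endothelial cells in its cultures, told by Arhgap31 and Adgrf5 among other markers. Cluster 12 was not matched to that population here. There 4 members were higher in hepatocyte nuclei, against 22.0% of all genes: Mlxipl (1.76 ± 0.14), Me1 (1.46 ± 0.14), Acaca (0.78 ± 0.13) and Elovl6 (0.68 ± 0.16). Scd1 was lower in them (-0.56 ± 0.15, adjusted p = 0.00176), as were 12.3% of all genes, and Fasn, Acly, Elovl5, Srebf1 and Pnpla3 did not pass the test. The summed level of Fasn in cluster 12 and the few endothelial nuclei beside it was 114% of that in cultured hepatocyte nuclei.

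The share of nuclei with at least 1 UMI was read after thinning each nucleus to 1000 UMIs. Fasn was detected in a median of 18.7%, 60.9% and 2.99% of hepatocyte nuclei in the order Liver, Cell Suspension, Primary Hepatocytes, and in 2.92%, 5.01% and 3.07% of the endothelial-marker nuclei of those samples, which in culture are those of cluster 12 for the most part. Of a pool's UMIs 61.3% to 70.7% lay in nuclei. The Fasn share in culture did not exceed that of the nuclei beside them, so nothing is read from it about expression. Before thinning the hepatocyte shares were 57.9%, 84.6% and 16.2%, at median depths of 7363, 3578 and 5980 UMIs, against 8.46%, 11.2% and 7.25% in the nuclei set beside them, at 2992, 2370 and 1723 UMIs. In culture, Mlxipl had a UMI in 25.9% of thinned hepatocyte nuclei and 6.0% of the nuclei set beside them, and Me1 in 18.5% and 7.36%. The part of free RNA in these shares was not tested.

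Other genes of lipid synthesis moved largely in the direction of the 10. Of 85 listed genes outside the members, 56 fell, 15 rose and 14 did not pass the test between Liver and Primary Hepatocytes, where 26.3% of all genes were lower and 27.4% higher. The rises in each list, such as 4 of 15 regulators, were near or below that share. Of 15 lipid regulators 11 fell and 4 rose (median log2 -1.08), among them Nr0b2, a nuclear receptor corepressor (33.2-fold lower), and Ppargc1b, a coactivator of SREBP-1c (14.1-fold lower). Insig2, which holds SREBP precursors in the endoplasmic reticulum, was 2.27-fold higher than in Liver. It was 2.21-fold higher in Cell Suspension already (adjusted p = 0.00937), and Primary Hepatocytes and Cell Suspension differed by 0.04 ± 0.32 on the log2 scale (adjusted p = 0.940). Mlxip, a paralog of Mlxipl, rose 2.03-fold. Of 12 genes of acetyl-CoA and NADPH supply 7 fell and 4 rose (median -0.67). Acss2, an acetyl-CoA synthetase, fell 12.8-fold and Idh1, a cytosolic NADPH source, 9.33-fold, whereas Pgd of the pentose phosphate pathway rose 8.93-fold and Pdk4, an inhibitor of pyruvate dehydrogenase, 4.34-fold. Pdk4 was 11.8-fold higher in Cell Suspension than in Liver and 2.73-fold lower in Primary Hepatocytes than in Cell Suspension (adjusted p = 0.0326).

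Of 6 further genes of malonyl-CoA and fatty acid synthesis 5 fell and none rose (median -1.48). Thrsp, a lipogenic nuclear protein, fell 30.3-fold, and its paralog Mid1ip1, which promotes polymerization of acetyl-CoA carboxylase, 8.30-fold. Of 15 genes of elongation and desaturation 10 fell and 2 rose (median -1.41), with Fads2, the delta-6 desaturase, 24.7-fold and Elovl3 22.1-fold lower. Elovl7, another elongase, rose 64.1-fold, from a mean of 1.22 ± 0.47 CPM (SD, n = 8) to 78.3 ± 15.7 CPM, and Hacd1, a dehydratase of the elongation cycle, rose 2.06-fold. Of 27 genes of triglyceride assembly and lipid droplets 15 fell and 3 rose (median -0.66). G0s2, an inhibitor of adipose triglyceride lipase, fell 99.5-fold, from a mean of 43.3 CPM to one near the floor, 0.43 CPM. Acsl1, an acyl-CoA synthetase, fell 28.2-fold, while Plin4, a droplet coat protein, rose 7.38-fold and Lpin3 2.46-fold. Of 10 genes of sugar supply 8 fell and 2 rose (median -3.01), with the glucose transporter Slc2a2 27.3-fold lower and the pentose phosphate enzymes Taldo1 and Tkt 1.62-fold and 1.50-fold higher.

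During isolation these lists moved less. Of the 85 genes 24 were higher and 9 lower in Cell Suspension than in Liver, and 52 did not pass the test, against 8.15% of all genes higher and 14.2% lower. In Primary Hepatocytes 61 were lower and 14 higher than in Cell Suspension, against 23.5% and 26.9%. The list medians between Cell Suspension and Liver lay between -0.12 for malonyl-CoA and fatty acid synthesis and 0.26 for triglyceride assembly and droplets, against 0.02 for all genes. By list, 5 of 15 regulators, 5 of 12 supply genes, 2 of 6 genes of malonyl-CoA and fatty acid synthesis, 1 of 15 elongation and desaturation genes, 7 of 27 triglyceride and droplet genes and 4 of 10 sugar supply genes were higher in Cell Suspension.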

How the data were processed

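Single-nucleus RNA libraries of 24 samples (8 mice, 3 sample types) were analysed from 6 pools. The deposited matrices hold raw UMI counts of spliced, unspliced and ambiguous RNA per gene and barcode, which the authors made with Salmon Alevin and Alevin-fry on GRCm38. Other deposited columns (unit: other) hold the authors' hashtag assignment, sample and cluster names. Per the study's methods, hashtags were assigned with mclust and doublets removed with scDblFinder before deposit. The members and gene lists were chosen with earlier results of these data known.

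Counts were summed per sample over hepatocyte nuclei, namely the clusters named as hepatocytes or isolated hepatocytes and the cultured clusters 0, 1, 8, 14 and 17, which were divided by marker lists. The quasi-likelihood test of edgeR 4.0.16 (R 4.3.3) was applied to these sums with TMM, all 24 samples and sample type as the only term, dropping genes under 10 counts in total and calling an adjusted p under 0.05. DESeq2 1.42.0, RLE, other filters, a mouse block, a pool term, spliced or unspliced counts alone, equal depth, other sets of nuclei and leaving out each mouse were alternatives. The one left-out set chosen after seeing the data omitted cluster 8. Spliced against unspliced change, pericentral against periportal nuclei (upper and lower of 3 equal parts of nuclei with at least 1000 UMIs, sample as block) and hepatocyte against endothelial nuclei (in culture mostly the unnamed cluster 12) were fitted in the same way. Mouse order used genes that averaged 10 CPM or more, with a pseudocount of 1 CPM, and so did the spread of all genes, while the spread of the members includes Pnpla3. The fits were tested on simulated data. Genes named outside the members were, of each list, up to 2 called genes that rose most and 2 that fell most from Liver to Primary Hepatocytes, provided they averaged 10 CPM or more in either type, and the 5 genes most like Fasn that averaged 50 CPM or more. Of these, 1 gene is not reported here. Other steps ran in Python 3.11.15, with matplotlib 3.10.9, pandas 2.3.3, scipy 1.17.1 and numpy 2.4.6.

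Each mouse gave all 3 sample types per the study's methods, and samples of the same number were read as one mouse. Over 3838 genes the deviations from the type's mean had a median correlation of 0.76 between the Liver and Cell Suspension samples of one mouse (-0.11 between different mice) and of 0.06 between Liver and Primary Hepatocytes, so the pairing was found in Liver and Cell Suspension and not in Primary Hepatocytes. The hashtag name CD2 was taken for mouse 2 in Cell Suspension, which no other name matched, and the alternative without mouse 2 leaves it out. Each mouse is 1 replicate, and the total UMIs per sample limit the precision of scarce genes such as Pnpla3.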

Additional observations from a re-analysis of the deposited data

Results flagged for a closer look

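The Liver level of Mlxipl in mouse 3 was 714 CPM, far from the other 7 Liver samples. On the scale of log2(CPM + 1) its gap to the nearest was 0.735 of the group's range, above Dixon's critical value. This was 1 of 30 groups examined, and chance sets apart about 1 group in 20. That library was in pool 1 and was also the lowest Liver sample in 7 of the 10 members.

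In all, 13 changes of the pericentral minus periportal difference passed the test of the difference itself. Between Liver and Cell Suspension these were Elovl5 (0.83), Fasn (0.50), Pnpla3 (1.58) and Scd1 (0.43), that is 4 of 10 members against 1.38% of all genes. Between Liver and Primary Hepatocytes they were Acly (1.95), Pnpla3 (2.69), Fasn (1.34), Elovl5 (1.13), Srebf1 (0.82), Acaca (0.79), Scd1 (0.67), Elovl6 (0.51) and Mlxipl (-0.37), 9 of 10 members against 9.72% of all genes. Nuclei of Primary Hepatocytes had a median of 3 zonation marker UMIs, against 59 to 66.3 in Liver and 28.5 to 35 in Cell Suspension, and the part of this in the differences was not tested. The periportal part of every Primary Hepatocytes sample held only nuclei tied at the lowest score, as did that of Cell Suspension in mice 1, 3 and 7. The changes from Liver to Primary Hepatocytes cannot be told apart from this weaker ranking.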

How the results depend on the processing

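The fall of all 10 members in culture kept its direction and call against Liver in 21 of 21 alternatives, and against Cell Suspension all were called in each except Me1 with spliced UMIs alone (-0.34, adjusted p = 0.0512). With the mouse as a replicate block, 10, 10 and 7 members were called for Primary Hepatocytes against Liver, against Cell Suspension, and for Cell Suspension against Liver. The block changed no call but that of Pnpla3 in the last comparison. Leaving out a mouse gave 5 to 6 members there. Me1 reversed in that comparison with pool as a covariate (-0.0653) and with spliced UMIs alone (-0.42, then called lower), as did Elovl5 with spliced UMIs alone (-0.31). Of the spliced minus unspliced differences, 3 to 7 members were called between Primary Hepatocytes and Liver on leaving out a mouse. With ambiguous UMIs added Acaca reversed there (-0.0731) and Me1 and Elovl6 were called (0.37 and 0.42), and Elovl5 ranged from -0.32 to 0.15 on leaving out a mouse. Between Cell Suspension and Liver, on leaving out a mouse, Acaca ranged from -0.17 to 0.0114 and Srebf1 from -0.00377 to 0.24, and with ambiguous UMIs added both were called (-0.31 and 0.41). With ends of 10% of nuclei in place of 3 equal parts, 1 member was called by position in Primary Hepatocytes, where Elovl6 was at -0.00202, and Scd1 was at -0.76 in Cell Suspension. On leaving out a mouse, Elovl6 ranged from -0.0265 to 0.0871 and Pnpla3 from -0.15 to 0.0588 in culture. Against the endothelial and cluster 12 nuclei in culture, Acly (-0.0835) and Elovl5 (-0.10) reversed without TMM factors, and leaving out a mouse gave -0.0283 to 0.0858 for Acly, -0.10 to 0.18 for Elovl5, -0.42 to 0.19 for Pnpla3 and -0.18 to 0.00540 for Fasn. The members' median SD in Primary Hepatocytes was 0.21 at full depth and 0.24 with a pseudocount of 10 CPM. The causes of these changes were not tested.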

Other observations

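The members were also summed per cultured cluster, as a description with no test. Me1 had a median of 479 CPM (346 to 550 over samples) in cluster 17 and of 155 to 237 CPM in the other 4 cultured hepatocyte clusters. Elovl6 had 98.1 CPM in cluster 0 and 41.3 CPM in cluster 1. In cluster 8, whose nuclei held few UMIs, Scd1 had 137 CPM and Fasn 45.8 CPM, while Fasn had 20.2 to 24.5 CPM in the others.

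Nuclei of other cell types in Liver held member RNA as well. Kupffer cell nuclei had medians of 150 CPM for Scd1 and 144 CPM for Acly, and stellate cell nuclei had 339 CPM for Acaca. Pnpla3 had 9.41 CPM in stellate nuclei and 5.69 CPM in hepatocyte nuclei, both without TMM scaling. These values come from the same pools as the hepatocyte nuclei, and the part of free RNA in them was not tested.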
